A study of Mus musculus with 9 samples.

Results

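The expression of 10 genes of epithelial plasticity was followed in mouse kidney: the transcription factors Snai1, Snai2, Twist1, Zeb1, Zeb2 and Sox4, and the cadherins Cdh1, Cdh2, Cdh6 and Cdh11. They were chosen by name, as 6 transcription factors and 4 cadherins, and are 10 of the 55385 genes in the table. All 10 passed the filter on low counts, as did 21392 genes in all. The kidneys came from C57BL/6 mice of 8 to 10 weeks, by the methods of the study males of the substrain C57BL/6J, with 3 mice in each of 3 groups and 1 poly(A) library from each mouse. Control mice carried the disease state control and the treatment label untreated, although their sample titles hold the name of the nephropathy group. HN mice had hyperuricemic nephropathy and were otherwise untreated. Their disease was brought on with potassium oxonate (2.4 g/kg) and adenine (0.16 g/kg), fed together on alternate days through 4 weeks. PEC mice had the same model and were given the flavonoid pectolinarigenin by mouth each day over those 4 weeks, at 25 mg/kg by the methods of the study. What Control mice received in place of these agents was not given in the sources used here.

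Cadherins are membrane proteins that hold neighbouring cells together through calcium-dependent contacts, and catenins tie them to actin inside the cell. In epithelial-mesenchymal transition, transcription factors of the Snail, Twist and Zeb families bind E-box sequences and repress epithelial genes such as Cdh1, while mesenchymal cadherins and matrix genes come up. In injured kidney these factors are known from damaged tubule cells as well as from fibroblasts, and a partial form of the program in tubules has been linked to fibrosis.

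The libraries held 57714111 to 81069646 counts, with a median of 74397038. The groups differed in more than the genes described here. Mitochondrial genes took 12.9% to 16.3% of the counts in Control, 6.01% to 6.34% in HN and 10.3% to 13.7% in PEC libraries. Nuclear rRNA loci took 0.117%, 0.682% and 0.119% of the counts in PEC libraries, against at most 0.00284% in each Control and HN library. The first principal component of log2 CPM, with 38.8% of the variance, set Control apart, at -130 to -123 against 61.8 to 68.3 in HN and 54.7 to 74.7 in PEC. The second, with 26.3%, set the 3 groups apart from each other and ran from 85.6 to 98.0 in PEC, from -95.7 to -83.3 in HN and from -4.67 to 4.10 in Control. Across 21358 genes, which are not independent replicates, the deviation of a PEC library from the mean of all libraries had a Spearman rho of 0.165 to 0.188 with transcript GC content and of -0.279 to -0.242 with transcript length. In HN libraries the same rho was -0.0672 to -0.0635 for GC content and 0.174 to 0.204 for length, and in Control libraries -0.182 to -0.082 and 0.0270 to 0.0557. The groups and these features of their libraries cannot be told apart.

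The kidney origin was plain from the marker genes, although the extraction protocol of the submitters speaks of an adipose type. Umod, the uromodulin of the thick ascending limb, was at 845 to 1380 FPKM in the 9 libraries, and Miox, a proximal tubule enzyme, at 191 to 819 FPKM. The 7 adipocyte markers summed to 18.4, 0.32 and 0.10 FPKM in Control, 1.42, 0.46 and 53.6 FPKM in HN and 0.27, 0.65 and 489 FPKM in PEC mice 1, 2 and 3. These sums were thus high in single mice, above all PEC mouse 3, and not in a whole group.

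Levels are given as FPKM, the authors' counts set against gene length and the total count of the library. The order of the genes rests on the authors' lengths, which were not those of the longest transcript for every gene. In Control mouse 2, Zeb2 had 2068 counts and 1.24 FPKM, with a longest transcript of 9124 bases. Sox4 had 2345 counts and 5.92 FPKM there, with 4795 bases. In Control kidney Cdh1, the E-cadherin of epithelial junctions, was the most abundant of the 10 genes at 35.8 ± 2.30 FPKM (SD, n = 3). Sox4, a factor of progenitor and injured epithelium, came next at 5.21 ± 0.662 FPKM. The other 8 genes lay between 0.657 ± 0.0710 FPKM for Twist1 and 1.53 ± 0.307 FPKM for Snai1, and in their order from Snai1 through Zeb2, Cdh2, Snai2, Zeb1, Cdh6 and Cdh11 to Twist1 each gene overlapped the next. In HN kidney the order opened up. Cdh1 at 60.1 ± 1.79 FPKM was followed by Sox4 at 42.3 ± 1.55 FPKM, Cdh11 at 11.4 ± 1.43 FPKM and Cdh6 at 6.48 ± 0.670 FPKM, with no overlap between neighbours. Snai1 and Zeb2 overlapped, as did Snai2 and Twist1, and Cdh2 was lowest at 1.20 ± 0.136 FPKM. In PEC kidney Cdh1 at 52.6 ± 2.42 FPKM and Sox4 at 7.88 ± 0.773 FPKM again led, and the other 8 genes formed a chain of overlapping neighbours from Cdh11 at 3.02 ± 0.297 FPKM to Cdh2 at 0.773 ± 0.110 FPKM.

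**Figure D1:**
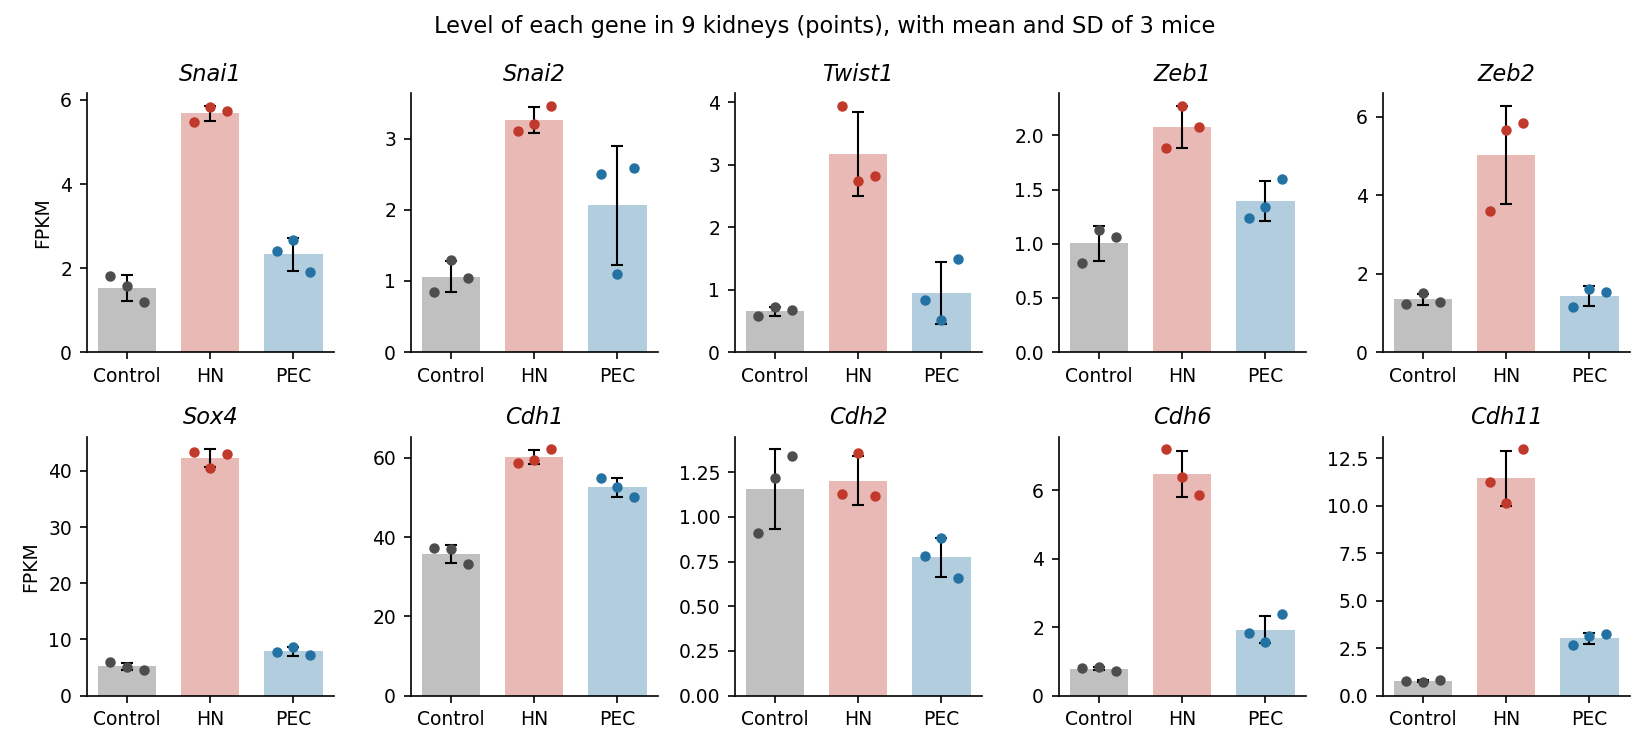
FPKM (vertical axes, each from 0) of the 10 genes in the 3 groups; points are single mice, bars the mean and error bars the SD of 3 mice. Sox4, Cdh6 and Cdh11 were higher in every HN mouse than in any Control or PEC mouse, while Cdh2 of Control and HN mice overlapped.

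The first comparison, HN against Control, shows how these genes differed in the diseased kidney. Cdh11, Cdh6 and Sox4 rose most, by 10.2-fold, 5.68-fold and 5.62-fold. Snai1, Snai2, Twist1, Zeb1 and Zeb2, the classic repressors of E-cadherin, rose as well. Cdh1 was not lower, and its call as higher was small and depended on the setting, as given below. By the quasi-likelihood test of edgeR with Benjamini-Hochberg adjustment over all genes, where an adjusted p of at most 0.05 counts as passed, 9 of the 10 genes were higher, against 21.1% of all genes tested. The 9 genes are a far larger share than that background, although the 10 were chosen with earlier results of these data known. By limma on log2(FPKM + 1), a scale set by total counts, 9 of the 10 were higher as well, against 52.3% of the 15508 genes it tested. In the other direction 0 of the 10 passed, against 20.7% of all genes, with 1 gene (Cdh2) lower at an unadjusted p of at most 0.05 and 0 by DESeq2 or limma. With only the Control and HN libraries in the fit, so without the PEC libraries, the counts were again 9 and 0. Of all 20061 genes in that fit, 4830 were higher and 4274 lower. With a fold change of at least 1.5 and an unadjusted p of at most 0.05 in edgeR, 7 of the 10 were higher, without Cdh1 and Zeb1. Of the 21392 genes, 4222 were higher and 3522 lower. The thresholds are those in the methods of the study, which name no test for them. The study itself reported fewer genes in each direction, and more lower than higher.

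Cdh11, the cadherin of fibroblasts and other mesenchymal cells, was at 0.79, 0.72 and 0.80 FPKM in Control mice and at 11.2, 10.1 and 13.0 FPKM in HN mice. The groups were far apart, and every HN mouse stood above every Control mouse. The log2 fold change was 3.35 with an SE of 0.13 (edgeR, adjusted p = 1.2e-06). Cdh6, a cadherin of the developing nephron, was at 0.81, 0.83 and 0.73 FPKM in Control mice and at 7.19, 6.38 and 5.86 FPKM in HN mice. The 3 HN mice again lay above the 3 Control mice, with a log2 fold change of 2.51 and an SE of 0.16 (edgeR, adjusted p = 6.21e-06). Cdh2, the N-cadherin of mesenchyme and nerve, which proximal tubule cells also make, was at 0.91, 1.22 and 1.34 FPKM in Control mice and at 1.13, 1.36 and 1.12 FPKM in HN mice. These groups overlapped. Its log2 fold change was -0.48 with a 95% interval from -0.90 to -0.06, and it missed the threshold in edgeR with an adjusted p of 0.0682. Without Control mouse 2, the value was -0.63 and passed at an adjusted p of 0.024. It also passed as lower with the dependence on GC content and length removed (-0.77), and with the mean of each library kept in that removal (-0.53). On total counts alone the sign turned, to 0.08.

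Cdh1 was at 37.3, 37.0 and 33.2 FPKM in Control mice and at 58.7, 59.6 and 62.2 FPKM in HN mice. On this scale, set by the total count of each library, the groups were far apart. The TMM factors, which correct for the composition of a library, were 0.778 to 0.832 in Control and 1.15 to 1.22 in HN libraries. With FPKM divided by them, a scale added after the data had been seen, Control mice were at 45.6, 44.5 and 42.6 for Cdh1 and HN mice at 51.1, 49.5 and 50.8. The fitted log2 fold change was thus only 0.21 with an SE of 0.07 (edgeR, adjusted p = 0.0349). On total counts alone it was 0.77. With the dependence on GC content and length removed it was -0.10, but this removal also centred each library anew and moved the median of all genes to -0.23. With the mean of each library kept, which was added after the first value had been seen, it was 0.14, and neither value passed. The call was also lost without any 1 of the 6 Control and HN mice, with log2 fold changes of 0.24 without Control 2, 0.22 without Control 4, 0.19 without Control 5, 0.21 without HN 4, 0.23 without HN 8 and 0.21 without HN 12.

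Sox4 was at 5.92, 5.10 and 4.61 FPKM in Control mice and at 43.3, 40.5 and 43.1 FPKM in HN mice, so that its HN level came near that of Cdh1. The mice of each group lay close together and the groups far apart. Its log2 fold change was 2.49 with an SE of 0.11 (edgeR, adjusted p = 1.46e-06). Snai1, a zinc finger repressor, was at 1.81, 1.57 and 1.20 FPKM in Control mice and at 5.48, 5.83 and 5.73 FPKM in HN mice. All HN mice were higher, by a log2 fold change of 1.36 with an SE of 0.19 (edgeR, adjusted p = 0.000425). Twist1, a basic helix-loop-helix factor, was at 0.58, 0.72 and 0.67 FPKM in Control mice and at 3.94, 2.74 and 2.81 FPKM in HN mice, with a log2 fold change of 1.74 and an SE of 0.37 (edgeR, adjusted p = 0.00475). HN mouse 4 was the highest for Twist1.

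Zeb2, a zinc finger and homeodomain repressor, was at 1.24, 1.51 and 1.29 FPKM in Control mice and at 3.59, 5.67 and 5.83 FPKM in HN mice. HN mouse 4 was the lowest of its group here and still above every Control mouse. The log2 fold change was 1.36 with an SE of 0.19 (edgeR, adjusted p = 0.000386). Zeb1, its relative, was at 0.82, 1.13 and 1.06 FPKM in Control mice and at 1.88, 2.27 and 2.08 FPKM in HN mice, with a log2 fold change of 0.51 and an SE of 0.15 (edgeR, adjusted p = 0.0226). Snai2, the relative of Snai1, was at 0.85, 1.29 and 1.04 FPKM in Control mice and at 3.11, 3.20 and 3.46 FPKM in HN mice, with a log2 fold change of 1.08 and an SE of 0.31 (edgeR, adjusted p = 0.0206). Both were higher in each HN mouse, yet their calls were lost under some settings, given here with log2 fold changes. That of Zeb1 was lost without Control 2 (0.38), HN 8 (0.45) or HN 12 (0.53), with GC content and length removed (0.22) and where a fold change of at least 1.5 was asked for, and it passed with the library mean kept (0.46). That of Snai2 was lost without Control 2 (0.94), Control 5 (1.09) or HN 12 (1.05).

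Annotated genes overlap some of the 10, and strandedness was not given in the sources used here, so that reads of opposite strands may not have been told apart. Zeb2os, on the strand opposite Zeb2, had 191 to 300 counts per library against 1974 to 10336 for Zeb2, and Gm27761, on the same strand as Zeb2os and within its span, had 17 to 121. Gm10125, opposite Zeb1, had 24 to 71 counts against 698 to 2101 for Zeb1. The other 10 genes that overlap Zeb1, Zeb2, Cdh2 or Cdh11 had at most 9 counts.

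**Figure D2:**
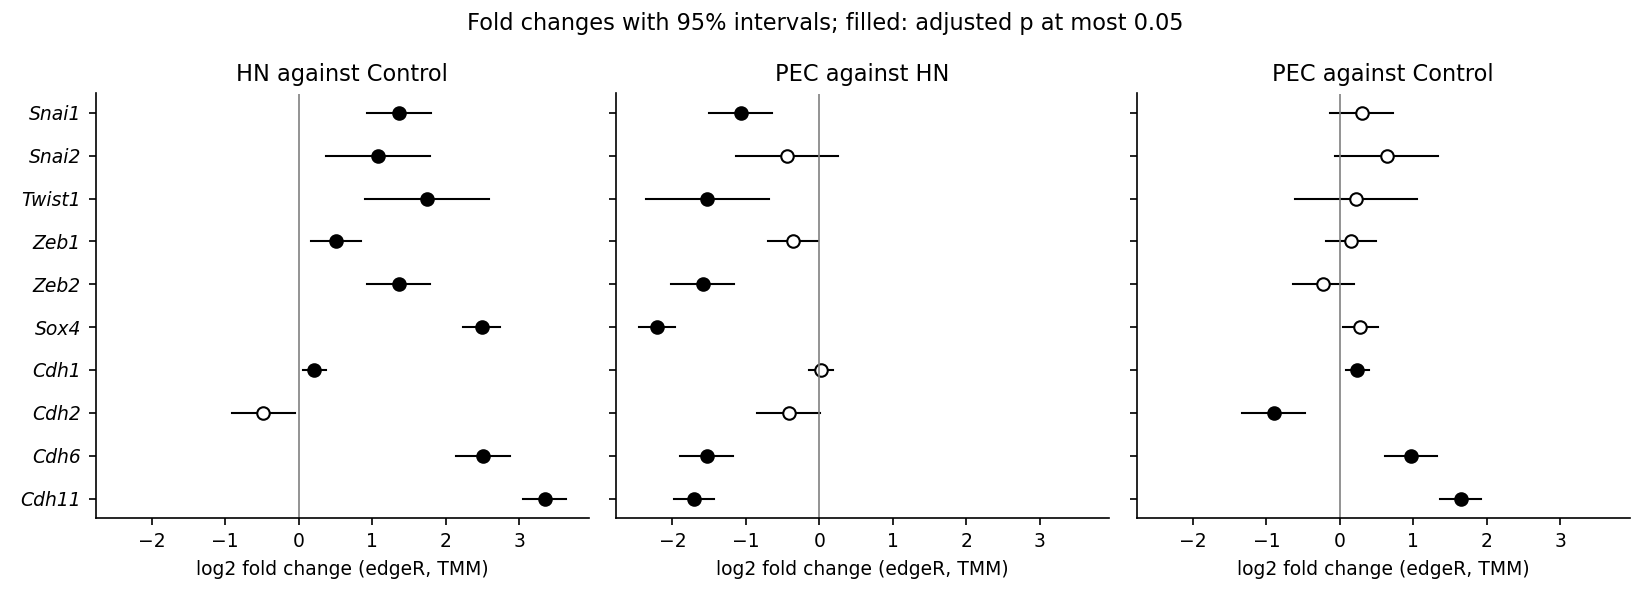
Log2 fold change (horizontal axes, edgeR with TMM) of the 10 genes in the 3 comparisons; lines are 95% intervals, not adjusted for the number of genes, and filled points passed at an adjusted p of at most 0.05. In HN against Control 9 points are filled, all above 0, Cdh1 among them only barely.

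The cadherins were also compared as shares of their own sum, which does not depend on the scaling of a library. Cdh1 made up 93.7%, 93.0% and 92.0% of the summed FPKM of the 4 cadherins in Control mice, 75.0%, 76.9% and 75.7% in HN mice and 91.2%, 90.4% and 88.9% in PEC mice. The HN share was below that of every other mouse. The share of Cdh11 was 1.98%, 1.81% and 2.22% for Control mice, 14.3%, 13.1% and 15.8% for HN mice and 4.45%, 5.40% and 5.73% for PEC mice, with no overlap among the 3 groups. Cdh6 took 2.05% ± 0.0335 (SD) of the sum in Control mice, 8.19% ± 1.03 in HN mice and 3.32% ± 0.784 in PEC mice. Cdh2 went the other way, with 3.02% ± 0.717 in Control mice, 1.52% ± 0.207 in HN mice and 1.33% ± 0.171 in PEC mice. In the exact two-sided permutation test of 3 against 3 mice, p was 0.1, the smallest it can give, for each share in each comparison except Cdh2 in PEC against HN (p = 0.3), so that no share could pass 0.05.

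**Figure D3:**
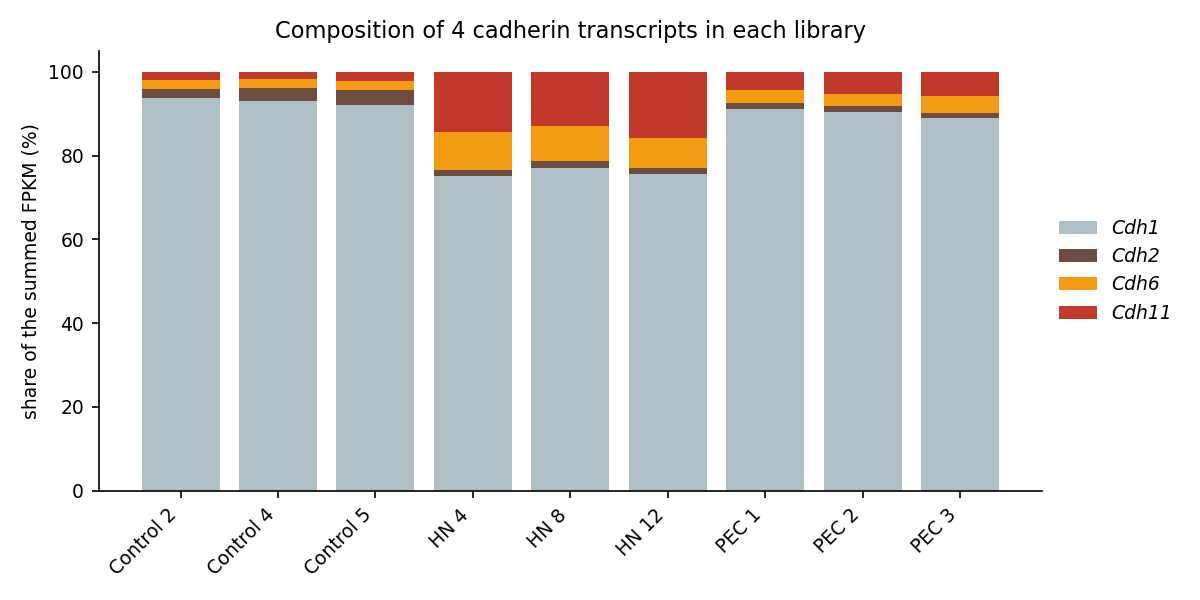
Share of Cdh1, Cdh2, Cdh6 and Cdh11 in their summed FPKM (vertical axis, percent) in each of the 9 libraries. Cdh11 and Cdh6 widen at the cost of Cdh1 in the 3 HN mice, where Cdh11 alone holds 13.1% to 15.8%.

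PEC against HN shows how the genes differed between treated and untreated nephropathy, with the HN libraries shared with the first comparison. Sox4, Cdh11, Zeb2, Cdh6, Twist1 and Snai1 were lower in PEC kidney, Sox4 by 4.62-fold and Snai1 by 2.09-fold. These are 6 of the 10 genes, against 20.6% of all genes tested that were lower. All 6 were also called higher in HN against Control with the same HN libraries, so that this share is no independent second excess. In the other direction 0 of the 10 passed in edgeR, against 18.3% of all genes, with 0 at an unadjusted p of at most 0.05 and 0 by DESeq2 or limma. In edgeR and DESeq2 Cdh1, Cdh2, Snai2 and Zeb1 did not pass. Limma on log2(FPKM + 1) called 8 of the 10 genes lower, beside 39.4% of 15508 genes, with Zeb1 (limma, adjusted p = 0.0121) and Cdh2 (limma, adjusted p = 0.028) added. Over all alternatives the adjusted p ran from 0.0121 to 0.873 for Zeb1 and from 0.0238 to 0.428 for Cdh2.

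Sox4 was at 7.72, 8.72 and 7.20 FPKM in PEC mice, all far below the lowest HN mouse. Its log2 fold change was -2.21 with an SE of 0.11 (edgeR, adjusted p = 9.39e-06). Cdh11 was at 2.68, 3.15 and 3.23 FPKM in PEC mice, between the Control and the HN levels, with a log2 fold change of -1.70 and an SE of 0.12 (edgeR, adjusted p = 3.29e-05). Cdh6 was at 1.84, 1.58 and 2.37 FPKM, likewise between the other groups, with a log2 fold change of -1.53 and an SE of 0.16 (edgeR, adjusted p = 0.000141). With GC content and length removed, the value of Cdh6 was -0.79 and still passed.

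Zeb2 was at 1.15, 1.62 and 1.53 FPKM in PEC mice, which overlapped the Control mice. Against HN its log2 fold change was -1.59 with an SE of 0.19 (edgeR, adjusted p = 0.000279), and -0.70 with GC content and length removed. Its transcript is the longest of the 10 at 9124 bases, with the lowest GC content at 40.6%. Snai1 was at 2.4, 2.68 and 1.91 FPKM, with a log2 fold change of -1.07 and an SE of 0.19 (edgeR, adjusted p = 0.00228). Twist1 was at 0.84, 0.51 and 1.49 FPKM, with a log2 fold change of -1.52 and an SE of 0.37 (edgeR, adjusted p = 0.0105). PEC mouse 3 was the highest for Twist1, and also the mouse with the adipocyte sum of 489 FPKM. Without it the log2 fold change of Twist1 was -1.98 (edgeR, adjusted p = 0.00228, with a range from 0.00029 to 0.0416 over the alternatives).

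Snai2 was at 2.50, 1.10 and 2.58 FPKM in PEC mice. PEC mouse 2 was at the Control level and the other 2 lay between Control and HN, and the log2 fold change of -0.44, with a 95% interval from -1.13 to 0.25, missed the threshold (edgeR, adjusted p = 0.291). Zeb1 was at 1.24, 1.34 and 1.60 FPKM, between the other groups, but overlapped the Control mice once FPKM was divided by the TMM factors. Its log2 fold change was -0.35 with an interval from -0.69 to -0.01 (edgeR, adjusted p = 0.0929). Cdh1 was at 54.9, 52.7 and 50.1 FPKM, below every HN mouse on that scale but overlapping them once FPKM was divided by the TMM factors. Its log2 fold change of 0.02 had an interval from -0.13 to 0.18. Cdh2 was at 0.78, 0.88 and 0.66 FPKM, with a log2 fold change of -0.42 and an interval from -0.84 to 0.01. On total counts alone Zeb1 (-0.55) and Cdh2 (-0.62) passed as lower, while with GC content and length removed Zeb1 was at 0.07.

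PEC against Control, which shares libraries with both other comparisons, shows how far the treated kidney was from Control. Cdh11, Cdh6 and Cdh1 were higher and Cdh2 was lower. That is 3 of 10 genes higher, against 22.9% of all genes, and 1 of 10 lower, against 23.5%, both near the background. The 6 transcription factors did not pass in edgeR. DESeq2 also called Sox4 higher, for 4 of the 10 genes in all, beside 5608 of the 21392 genes. Limma on log2(FPKM + 1) called 7 higher, beside 39.6% of 15508 genes, with Snai1, Snai2, Zeb1 and Sox4 added (limma, adjusted p = 0.0169, 0.0422, 0.048 and 0.00208). Over all alternatives the adjusted p ran from 0.0156 to 0.677 for Snai1, from 0.00663 to 0.309 for Snai2 and from 0.021 to 0.914 for Zeb1. The log2 fold changes were 1.65 with an SE of 0.12 for Cdh11 (edgeR, adjusted p = 1.63e-05) and 0.97 with an SE of 0.16 for Cdh6 (edgeR, adjusted p = 0.000921). For Cdh2 the value was -0.90 with an SE of 0.19 (edgeR, adjusted p = 0.00403), and its 3 PEC mice lay below every Control mouse. Over the alternatives the log2 fold change ran from -1.055 to -0.279 for Cdh2 and from 0.70 to 1.62 for Cdh6, and both genes passed under each.

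Cdh1 was higher in PEC than in Control mice by a log2 fold change of 0.24 with an SE of 0.07 (edgeR, adjusted p = 0.0207). This call was lost without Control 4 (0.24), Control 5 (0.20) or PEC 1 (0.20) with GC content and length removed (0.08) and where a fold change of at least 1.5 was asked for, and it passed with the library mean kept (0.29). Sox4, with a log2 fold change of 0.28 and an interval from 0.04 to 0.52, just missed the threshold (edgeR, adjusted p = 0.0567) and passed under 9 of the 22 alternatives, where the adjusted p ran from 0.00125 to 0.278. These were DESeq2 (0.30), median-of-ratios factors (0.30), the filter on mean FPKM (0.34), total counts alone (0.64), limma on either FPKM scale (0.52 and 0.59), GC content and length removed with the library mean kept (0.37), and the fits without Control 2 (0.37) or PEC 3 (0.36). Snai2, at 0.64 with an interval from -0.06 to 1.34, passed without PEC 2 (0.94). For Snai1 the interval ran from -0.13 to 0.73, for Twist1 from -0.61 to 1.05 (0.22 as fitted and -0.24 without PEC 3), for Zeb1 from -0.18 to 0.50 and for Zeb2 from -0.64 to 0.20. A p past the threshold in one comparison and not in another was not tested as a difference between them. The sign of Zeb2 depended on the setting: -0.22 as fitted, 0.13 on total counts alone, 0.37 with GC content and length removed, and 0.57 with the library mean kept, which passed (limma, adjusted p = 0.0446, with a range from 0.0446 to 0.805 over the alternatives).

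**Figure D4:**
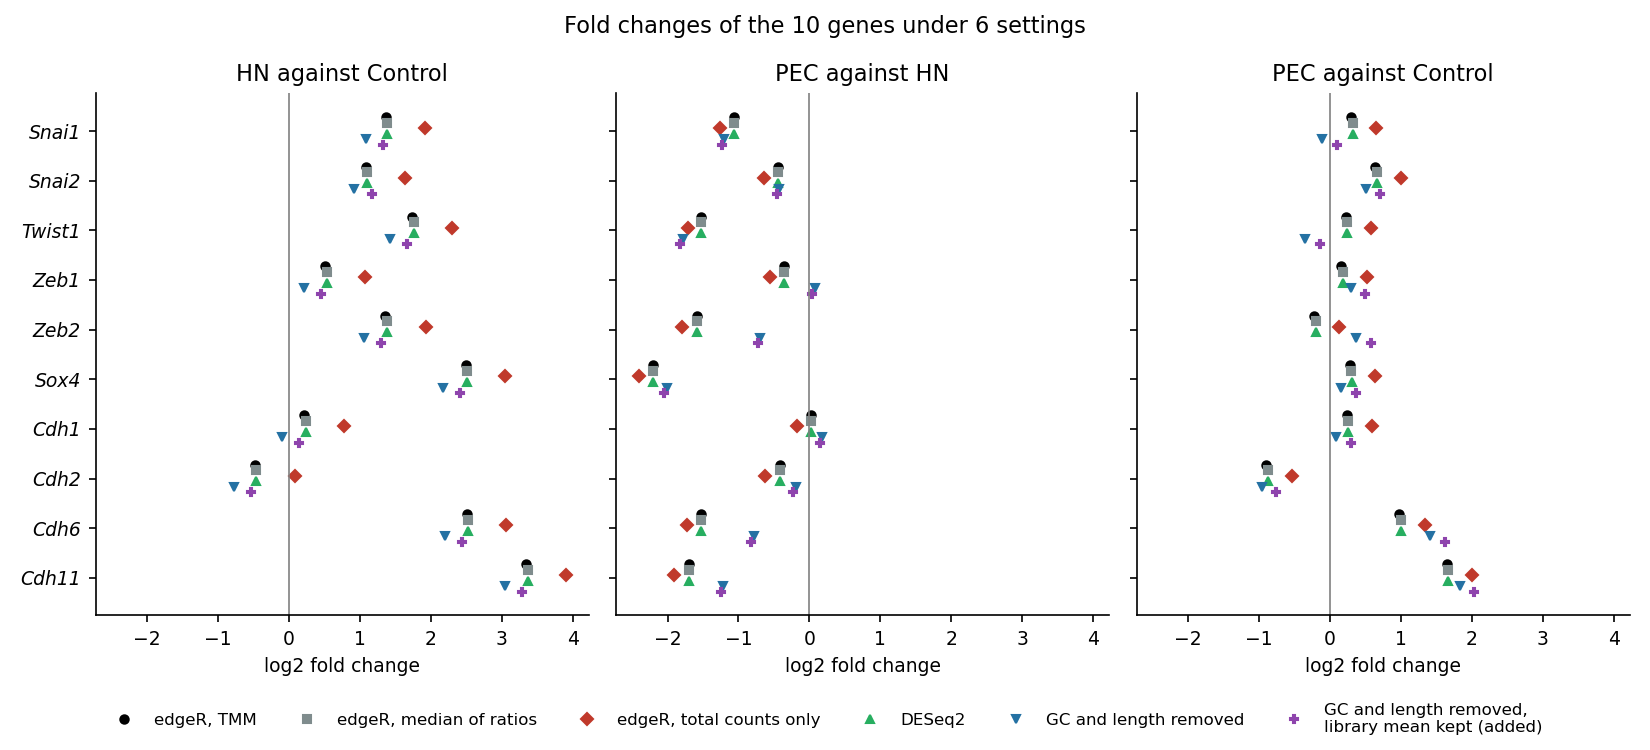
Log2 fold change (horizontal axes) of the 10 genes in the 3 comparisons under 6 settings, shown as symbols. Cdh11, Cdh6 and Sox4 stay far from 0 in HN against Control under each of them, whereas Cdh1 runs from -0.10 to 0.77 and Cdh2 from -0.77 to 0.08.

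As a description only, the promoters of the genes with a sequence were read. RefSeq promoter windows (GRCm38.p6) were held for 5 of the 10 genes: Snai1, Twist1, Sox4 and Cdh6 with 1 window each and Zeb2 with 4. Snai2, Zeb1, Cdh1, Cdh2 and Cdh11 had none in the table. The stretch from 200 to 16 bases upstream of the start site, 185 bases without transcribed sequence of that start, was searched on both strands for the E-box bound by Snail and Zeb factors (CACCTG or CAGGTG). The GC box (GGGCGG or CCGCCC), the STAT site (TTCNNNGAA), the AP-1 site (TGACTCA or TGAGTCA) and the TATA box (TATAAA or TTTATA) were added after the data had been seen. Matches are in capitals, the strand is that of the gene, and the positions are chr2:167537995-167538179 (plus strand) for Snai1, chr12:33957471-33957655 (plus) for Twist1, chr13:28953715-28953899 (minus) for Sox4 and chr15:13173691-13173875 (minus) for Cdh6.
Snai1: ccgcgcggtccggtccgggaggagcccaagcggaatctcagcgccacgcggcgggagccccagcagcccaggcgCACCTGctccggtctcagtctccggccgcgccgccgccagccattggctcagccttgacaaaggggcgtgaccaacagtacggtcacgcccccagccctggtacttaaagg
Twist1: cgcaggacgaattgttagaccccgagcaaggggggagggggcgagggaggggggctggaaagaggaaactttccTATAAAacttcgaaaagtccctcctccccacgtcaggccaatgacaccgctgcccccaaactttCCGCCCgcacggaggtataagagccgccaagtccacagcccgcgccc
Sox4: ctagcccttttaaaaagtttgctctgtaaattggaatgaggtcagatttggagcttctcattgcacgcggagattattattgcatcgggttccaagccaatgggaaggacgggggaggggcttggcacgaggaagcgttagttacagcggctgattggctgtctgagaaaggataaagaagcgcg
Cdh6: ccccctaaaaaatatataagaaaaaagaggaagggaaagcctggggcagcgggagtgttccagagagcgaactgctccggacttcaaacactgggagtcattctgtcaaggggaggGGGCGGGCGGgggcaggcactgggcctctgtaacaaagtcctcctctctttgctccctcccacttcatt

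The E-box stood in the window of Snai1 alone, as CACCTG with its first base 126 bases upstream of the start site, and was in 12.9% of all 32851 windows. Twist1 held a TATA box 126 bases and a GC box 62 bases upstream, and Cdh6 2 overlapping GC boxes. Sox4 held no match to any of the 5 motifs. Of the 4 Zeb2 windows, that of the outermost start site (chr2:45117442) held no match. The 2 that overlap each other (start sites 45113279 and 45113253) shared 1 STAT site and 1 GC box. Another (start site 45110277) held 2 AP-1 sites and 1 GC box. The start sites with matches lie inside the annotated gene, chr2:44983632-45117395. Over all windows, the GC box was in 28.7%, the TATA box in 9.5%, the STAT site in 5.08% and the AP-1 site in 3.46%. The GC content of the stretch was 70.8% in Snai1, 61.6% in Twist1, 55.1% in Cdh6 and 49.2% in Sox4, against a median of 53% over all windows. A match is a string of letters and no evidence of binding.

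Lists of related genes were counted in the same way, to be set beside all genes. In edgeR 21.1% of all genes were higher and 20.7% lower in HN against Control, 18.3% and 20.6% in PEC against HN, and 22.9% and 23.5% in PEC against Control. By limma on log2(FPKM + 1) the shares were 52.3% and 10.9%, 16.3% and 39.4%, and 39.6% and 18.7%, in this order. Limma was run only where the mean FPKM reached 0.5, so that it tested fewer genes of some lists, and their number is given where it differs.

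Of 18 other EMT-promoting factors 17 were tested, and 12 rose in HN against Control (9 of 10 tested by limma), with a median log2 fold change of 0.97 beside -0.00081 over all genes. Sox9, a factor of regenerating tubules, was at 0.08 to 0.19 FPKM in Control, at 5.91 to 9.09 FPKM in HN and at 2.41 to 2.95 FPKM in PEC mice. Runx1 rose in HN by 4.0 on the log2 scale, and Sox11 was at most 0.04 FPKM in Control and 0.83 to 1.13 FPKM in HN mice. Tcf3, the E-protein partner of Twist1 and the most abundant of the list, rose by 0.74. In PEC against HN 7 of the 17 were lower (8 of 10 by limma), with a median of -0.88 beside -0.015 over all genes. In PEC against Control 6 were higher and 1 lower (4 and 1 of 10 by limma), with medians of 0.59 and 0.045.

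Of 18 regulators of the epithelial state 6 were higher and 5 lower in HN against Control, 6 higher and 2 lower in PEC against HN, and 3 higher and 3 lower in PEC against Control. By limma the counts of 16 tested were 8 and 3, 4 and 6, and 6 and 2, so that the balance in PEC against HN turned with the setting. With GC content and length removed they were 4 and 8 in HN against Control, or 6 and 7 with the library mean kept. Hnf4a, a factor of proximal tubule identity, fell in HN by 1.56 on the log2 scale and was 0.61 higher in PEC than in HN. Ovol1, a repressor of Zeb1 in other epithelia, was lower in HN at -1.49 and 1.02 higher in PEC than in HN, and Klf5 was higher in HN at 1.43.

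Of 19 other cadherins 10 were tested, and Cdh7, Cdh8 and Cdh18 were at 0 counts in all 9 libraries. In HN against Control 3 were higher and 1 was lower (3 and 0 of 5 tested by limma). Cdh3, or P-cadherin, was at 0.82, 1.08 and 0.95 FPKM in Control, 13.3, 12.2 and 15.3 FPKM in HN and 9.96, 9.69 and 8.53 FPKM in PEC mice. In edgeR, unlike Cdh11 and Cdh6, it did not pass as lower in PEC against HN (log2 fold change -0.32, edgeR, adjusted p = 0.0772). Every PEC mouse was still below every HN mouse in FPKM, and that contrast between genes was not tested. Cdh16, the kidney-specific cadherin and the most abundant of the list, was at 164 to 185 FPKM in Control and lower in HN at -0.39, with a sign that turned to 0.17 on total counts alone. Cdh17 was listed at 0 FPKM in Control mice and at 0.31 to 0.37 FPKM in HN mice, and the endothelial Cdh5 was higher in HN at 0.44. In PEC against HN 1 was lower (4 of 5 by limma), and in PEC against Control 2 were higher and 1 lower (3 and 0 of 5 by limma).

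Of 14 catenins and cadherin partners 3 were higher and 3 lower in HN against Control (6 and 1 of 11 tested by limma). Against HN, 3 were higher and 7 lower in PEC (1 and 7 of 11 by limma), with a median log2 fold change of -0.298. In PEC against Control 2 were higher and 6 lower, or 2 and 2 of 11 by limma. Ctnnb1, or beta-catenin, had a log2 fold change of 0.08 in HN against Control, which did not pass, and was lower in PEC than in HN at -0.66. Nectin2 rose in HN by 1.55, Ctnnd2 rose from 0.01 to 0.02 FPKM in Control to 0.54 to 0.67 FPKM in HN, and Ctnna2 fell by 3.62 on the log2 scale. Tight junction, desmosome and keratin genes, which belong to the epithelium, were higher in HN for 12 of 18 and lower for 1, or 14 and 0 by limma, 6 and 2 with GC content and length removed and 11 and 2 with the library mean kept. Krt19 rose by 2.65, Krt8 by 1.16, Dsg2 by 1.70 and Dsc2 by 1.51. In PEC against HN 8 of this list were lower and 1 higher (9 and 0 by limma), and in PEC against Control 8 were higher and 5 lower (8 and 1 by limma).

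All 14 mesenchymal intermediate filament and matrix genes rose in HN against Control, in edgeR and by limma, with a median log2 fold change of 2.03. Col1a1 was at 2.65 to 2.95 FPKM in Control, 75.8 to 84.2 FPKM in HN and 30.4 to 39.2 FPKM in PEC mice. Col3a1 rose by 4.20 and Sparc by 2.4. In PEC against HN 6 were lower and 2 higher (8 and 1 by limma), and in PEC against Control 13 were higher (14 by limma). Of 17 ligands and receptors that induce the transition, 12 were higher and 2 lower in HN, 2 higher and 10 lower in PEC against HN, and 9 higher and 4 lower in PEC against Control, or 13 and 2, 2 and 11, and 9 and 3 of 16 tested by limma. Tgfb2 rose in HN by 3.20, Areg was listed at 0 FPKM in Control mice and at 0.52 to 0.69 FPKM in HN mice, and Egf, made by the distal tubule, fell by 3.52. Of 11 cofactors of Snail and Zeb proteins 6 were higher and 2 lower in HN against Control, or 9 and 0 by limma, 3 and 3 with GC content and length removed and 5 and 3 with the library mean kept, with Ezh2 at 1.25, Limd1 at 1.03 and Kdm1a at 0.78. In PEC against HN 5 cofactors were lower (10 by limma), in PEC against Control 5 were higher and 4 lower (7 and 2 by limma), and Ctbp1, the most abundant, passed in no comparison as fitted.

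Markers of several cell types also differed between the groups. Fibroblast and pericyte markers share Acta2, Col1a1 and Col3a1 with the matrix list. They summed to 83.1, 81.0 and 67.7 FPKM in Control, 423, 439 and 416 FPKM in HN and 218, 235 and 230 FPKM in PEC mice. Of the 12, 11 rose in HN against Control (12 by limma) and 8 fell in PEC against HN (9 by limma). Macrophage markers, led by Lyz2, summed to 56.0 to 68.6 FPKM in Control, 1170 to 1362 FPKM in HN and 450.5 to 623 FPKM in PEC mice, with 10 of 11 higher in HN (11 by limma) and 9 lower in PEC against HN, also by limma. Injured tubule markers, led by Spp1, rose for 8 of 8 in HN, and their sums ran from 413 to 513 FPKM in Control, 11450 to 12650 FPKM in HN and 7438 to 9115 FPKM in PEC mice. Of the 8, 3 were lower in PEC against HN, 5 by limma and 0 with either removal of GC content and length. Lymphocyte markers, led by Jchain, summed to 3.21 to 6.51 FPKM in Control, 24.2 to 46.8 FPKM in HN and 9.27 to 11.6 FPKM in PEC mice, and were higher in HN for 9 of 11 (8 of 8 tested by limma) and lower in PEC against HN for 3 (6 of 8 by limma). In bulk kidney, more cells of a type and more RNA per cell cannot be told apart, and the part of these cell types in the values of Cdh11, Sox4, Zeb2 and the others was not tested.

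Markers of healthy tubule differed by segment. Proximal tubule markers, led by Miox, were lower in HN for 9 of 10, with sums of 2474 to 2733 FPKM in Control, 804 to 878 FPKM in HN and 1347 to 2032 FPKM in PEC mice, and 8 were higher in PEC than in HN, or 6 higher and 1 lower by limma. The part of that segment in the values of Cdh2 was not tested. Of 9 collecting duct markers, led by Aqp2, 6 were lower in HN (1 higher and 3 lower by limma) and 8 higher in PEC against HN (6 by limma), with sums of 227 to 444 FPKM in Control, 171 to 238 FPKM in HN and 258 to 339 FPKM in PEC mice. Of 8 markers of thick limb and distal tubule, led by Umod, 1 was higher and 4 were lower in HN, or 3 and 3 by limma. Their sums in FPKM, a scale set by total counts, were 1515 to 1697 in HN, 1217 to 1362 in Control and 1352 to 1499 in PEC mice. The higher HN sums hold on that scale only as given. In edgeR with TMM the median log2 fold change of the list in HN against Control was -0.542. Of 10 endothelial markers, led by Plvap, 1 was higher and 4 were lower in HN, which turned to 5 higher and 0 lower by limma. Of 8 podocyte markers, led by Podxl, 3 were higher in HN and 8 by limma, while 1 was higher and 1 lower with GC content and length removed, or 3 and 1 with the library mean kept. Of 7 adipocyte markers, led by Cfd, 6 were tested and 0 passed in any comparison in edgeR, with 0 also at an unadjusted p of at most 0.05 and by DESeq2 or limma. No marker gene was at 0 counts in all libraries.

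**Figure D5:**
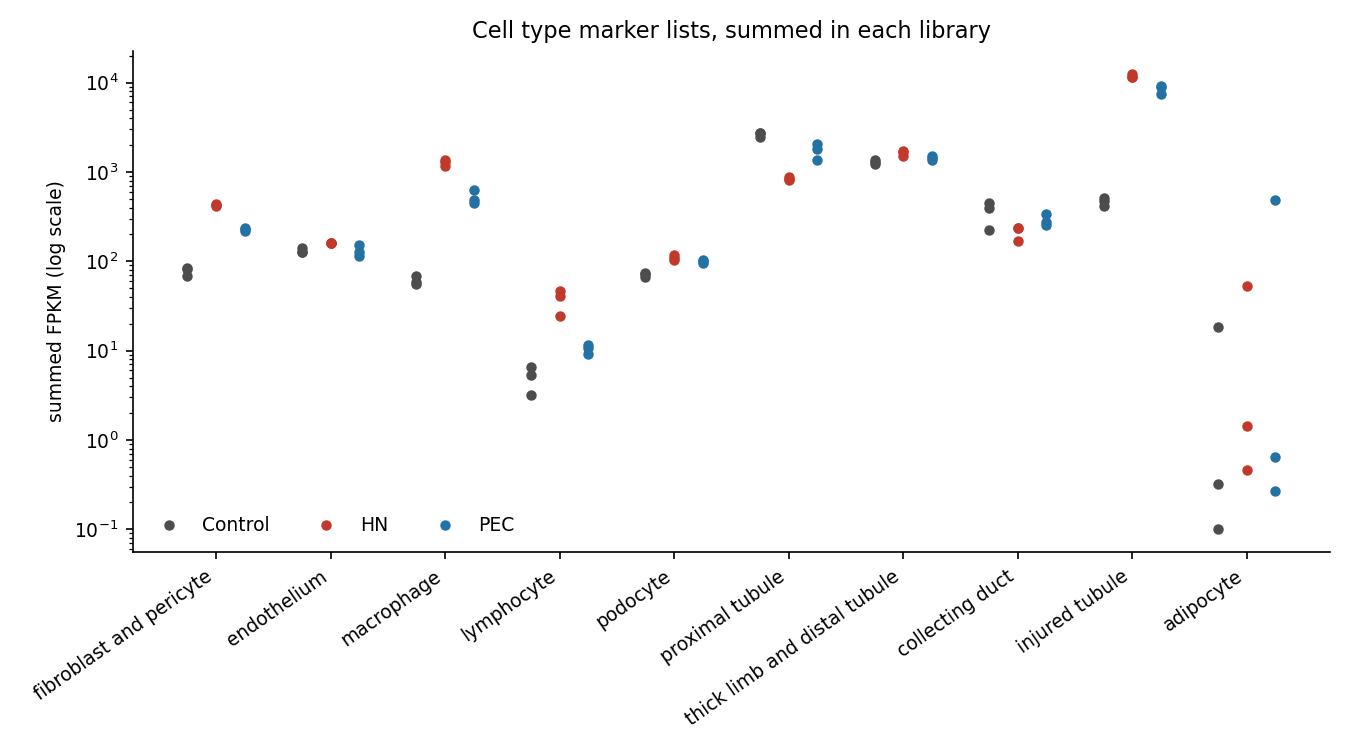
Summed FPKM (vertical axis, log scale) of 10 lists of cell type markers in each library, by group. Macrophage sums run from 56.0 to 68.6 in Control, 1170 to 1362 in HN and 450.5 to 623 in PEC mice, while adipocyte sums are high in single mice.

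Genes most like each member over the 9 libraries were sought among 13458 genes, by the Pearson correlation of log2 CPM, as a description of libraries that fall into 3 groups. Cdh11 was most like Fstl1, Basp1 and Ptgfrn, with r of 0.996, 0.995 and 0.995, and Cdh6 most like Gas7, Chic2 and Sh3gl1, with r of 0.995, 0.990 and 0.988. Among the genes most like Sox4 were Itpripl2 and Map1s, with r of 0.991 and 0.990. Itpripl2 was at 2.76 to 3.45 FPKM in Control, 14.3 to 16.6 FPKM in HN and 3.84 to 4.82 FPKM in PEC mice, which gives the same order of groups as Sox4. For Snai1 the genes were Zswim4, Dkk3 and Zfp608 (0.983 to 0.992), for Twist1 Matn2, Ahr and Cbarp (0.965 to 0.970) and for Zeb2 Kat6b, Dip2a and Rbpj (0.974 to 0.983). Snai2, with its low value in PEC mouse 2, was most like Pla2g5, Vwa2 and Bax (0.945 to 0.966), and Zeb1 most like Slfn8, Fbxo32 and Svep1 (0.941 to 0.949). Cdh1 was most like Dlgap4, Eprn and 2410006H16Rik (0.976 to 0.982), and Cdh2 most like Setdb2, Pskh1 and Wipi1 (0.965 to 0.973).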

How the data were processed

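Poly(A) RNA of 9 mouse kidneys was sequenced, with 3 mice in each group. The authors deposited 1 table of whole-number counts per gene, not normalized, and FPKM computed by the authors from these counts, gene length and the total of each library. The submitters' processing notes name Bowtie 0.12.2; the counting program was not given in the sources used here. The notes also name mouse builds older than GRCm38, but coordinates of 51991 of 55144 genes equalled those of GENCODE mouse release 21 on GRCm38, which gave GC content and length. Total counts were 57714111 to 81069646, so that counting error was small for all but the lowest genes.

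Counts were fitted in edgeR 4.0.16 (R 4.3.3; filterByExpr, TMM, glmQLFit, glmQLFTest) over all 9 libraries, with Benjamini-Hochberg adjustment over 21392 genes. Levels are deposited FPKM. Shares of cadherins were compared by exact permutation in scipy 1.17.1. Steps were tested on simulated counts. Named genes were the 10 members, the most abundant gene of each list and, in lists other than markers, up to 3 with the largest change among those passed in HN against Control, genes overlapping a member and the 3 most alike in log2 CPM with a mean FPKM of at least 1. The results of 2 genes that this rule names are not reported here. The members and the lists were chosen with earlier results of these data known. Alternatives were other scalings, DESeq2 1.42.0, limma 3.58.1 on log2(FPKM + 1) and log2(FPKM + 0.1), other filters and thresholds, removal of GC content and length with splines, and leaving out each library. Chosen after seeing the data were limma on log2 CPM, FPKM divided by the TMM factor, motifs other than the E-box and the narrower promoter windows, and a second removal of GC content and length that kept the mean of each library. That second removal was added because the planned one had centred the libraries anew, and both are reported.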

Additional observations from a re-analysis of the deposited data

How the results depend on the processing

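Of 660 fold changes of the 10 genes under 22 alternatives, 605 kept their side of the threshold, 24 lost the call and 29 gained one, with the sign as fitted, and 2 turned sign with a call in one of the fits: Cdh1 in HN against Control lost its call and Zeb2 in PEC against Control gained one. Of the 605, 18 turned sign with no call as fitted or under the alternative. They were 5 values of Cdh1 and 2 of Zeb1 in PEC against HN, 3 of Cdh2 in HN against Control, and 4 of Zeb2, 3 of Twist1 and 1 of Snai1 in PEC against Control. In HN against Control, Snai1, Twist1, Zeb2, Sox4, Cdh6 and Cdh11 were higher, and in PEC against HN the same 6 genes were lower, with an adjusted p of at most 0.05 under each of the 22. The cause of the changes below was not tested. On total counts alone the median of all genes was 0.56 in HN against Control, -0.21 in PEC against HN and 0.40 in PEC against Control, so that most genes shifted one way. The planned removal of GC content and length centred each library anew, with medians of -0.23, 0.028 and -0.16 in the same order.

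The counts of all genes differed between settings, of which limma on FPKM tested 15508 genes. In HN against Control 4520 genes were higher and 4425 lower as fitted, 9642 and 1706 on total counts alone, 8106 and 1690 by limma on log2(FPKM + 1), 8073 and 1682 by limma on log2(FPKM + 0.1), and 3554 and 6896 with GC content and length removed. In PEC against HN 3923 were higher and 4399 lower as fitted, 2588 and 6031 on total counts alone, 2527 and 6103 or 2433 and 5916 by limma with the larger or the smaller pseudocount, and 4062 and 3202 with GC content and length removed. In PEC against Control 4902 were higher and 5037 lower as fitted, 7792 and 2841 on total counts alone, 6139 and 2896 or 6228 and 2936 by limma, and 3796 and 6446 with GC content and length removed. The removal with the library mean kept, chosen after seeing the data, gave 4640 and 4685 in HN against Control, 3816 and 3536 in PEC against HN and 5057 and 4816 in PEC against Control. Of the 10 genes, 7 were higher in PEC against Control on total counts alone and by limma on either FPKM scale, and 6 with GC content and length removed and the library mean kept, in place of 3. In HN against Control 1 was lower (Cdh2) with either removal of GC content and length, and 7 were higher in place of 9 where a fold change of at least 1.5 was asked for. Over the fits without 1 library, 0 to 1 was lower and 6 to 9 were higher.

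Fold changes that turned sign with a call in either fit are on the log2 scale. With GC content and length removed, Cdh1 was at -0.10 in HN against Control, 2410006H16Rik at -0.61, Chic2 at 0.24 and Kat6b at 0.032 in PEC against HN, and Umod at -0.33 and Sh3gl1 at -0.043 in PEC against Control. With the library mean kept, 2410006H16Rik was at -0.65 and Chic2 at 0.21 in PEC against HN, and Zeb2 at 0.57, Kat6b at 0.25 and Rbpj at 0.30 in PEC against Control. On total counts alone, limma on log2(FPKM + 1) and limma on log2(FPKM + 0.1), in this order, HN against Control gave 0.17, 0.14 and 0.15 for Cdh16, 0.37, 0.33 and 0.35 for Ctbp1, 0.34, 0.32 and 0.32 for Plvap, 0.44, 0.41 and 0.42 for Podxl, 0.33, 0.28 and 0.30 for Pskh1, and 0.16, 0.12 and 0.13 for Wipi1. PEC against Control gave 0.28, 0.24 and 0.25 for Ctbp1, and 0.27 on total counts alone for Kat6b.

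Shares of the 4 cadherins on counts in place of FPKM kept their direction. No paired analysis was run, because the methods of the study assign mice to groups at random and describe no pairing. Mouse numbers that recur, 4 in Control and HN and 2 in Control and PEC, were not taken as pairs. Depth was at least 57714111 counts per library. The call of Cdh1 in HN against Control was lost on leaving out any Control or HN mouse, with either removal of GC content and length and where a fold change of at least 1.5 was asked for.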
